A study of Homo sapiens with 9 samples.

Results

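The genes described here are 43 components of the TGF-beta and BMP pathways, chosen by name from the 58051 genes of the count table: TGF-beta, activin and BMP ligands, the proteins that store or trap them, receptors, SMADs, SMAD inhibitors and 4 transcriptional targets. The rule uses names and no measured value, but the genes were proposed with earlier results of these data known. Of the 43 genes, 35 had enough reads to be tested and are among the 14513 genes tested in all.

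RNA was measured by poly(A) RNA-Seq in A431 cells, an epidermoid carcinoma line that carries endogenous mutant p53. A431 parental (mutp53) cells were compared with A431 p53 KO cells, a stable line made with a GFP CRISPR construct against p53, and with A431 Ctrl (mutp53) cells, a stable line made in the same way with an empty vector. Both A431 Ctrl and A431 parental cells kept mutant p53. The comparison of p53 KO with either control set a line that lost it against cells that kept it. Ctrl against parental asked what differed between cells that both kept it. Each derived group was a stable line, so loss of mutant p53 and other differences between lines cannot be told apart here. There were 3 libraries per group. Per the labels the cells were grown as single colonies, and whether the libraries of a line came from 1 clone or from separate cultures was not given in the sources used here, so p-values measure only the spread between these libraries, which may be technical.

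TGF-beta, activins and BMPs are secreted dimers that bring type I and type II receptor kinases together at the cell surface. TGF-beta and activin receptors phosphorylate SMAD2 and SMAD3, BMP receptors phosphorylate SMAD1 and SMAD5, and both sets enter the nucleus with SMAD4 to change transcription. In squamous epithelium TGF-beta is known as a brake on proliferation early in tumour growth and as a driver of invasion and matrix production later.

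Values below are counts, CPM (counts scaled to library size by edgeR's TMM method) or log2 fold changes ± SE from edgeR's quasi-likelihood test over all 9 libraries, with p-values adjusted over the 14513 genes tested. A gene was called at an adjusted p of at most 0.05. Library totals ranged from 19783778 to 29840452 counts. Of 10 keratinocyte and squamous markers 9 were tested, including KRT5, CDH1, EPCAM and EGFR, and KRT14 held 0 to 13 counts. Their sum, most of it EGFR, was 15140 to 19130 CPM in parental and p53 KO libraries and 10770 to 12890 in Ctrl libraries. Without EGFR it was 1758 to 1815 CPM in parental, 1893 to 2107 in Ctrl and 1991 to 2104 in p53 KO libraries, and the part of these levels in the results was not tested. Single markers moved within these sums, and KRT6A had 13.3 to 15.3 CPM in parental, 9.80 to 11.3 in Ctrl and 68.3 to 77.8 in p53 KO libraries. Of the 9 tested, 3 rose and 1 fell in p53 KO against parental (9.77% and 8.36% of all genes). Against Ctrl 2 rose and 1 fell (15% and 14.2%). The 10 fibroblast markers summed to 2.38 to 4.42 CPM in any library and 8 of them, COL1A2 and PDGFRA among these, never exceeded 3 counts. Most of that sum was COL1A1, which had 2.33 to 4.36 CPM and 47 to 114 counts a library. Summed endothelial markers reached 3.16 CPM and summed blood markers 3.25 CPM at most. The first Ctrl library stood apart. It was the smallest, and its value lay below both other Ctrl libraries in 22 of the 35 members tested and above both in 11. Calls of members that change without it are given with and without it. In bulk samples, fewer cells of a type and less RNA per cell cannot be told apart, and counts and limits of detection cover counting error only.

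The promoters of 4 genes on which the comparisons turn are shown here so that the genes with the widest differences can be read beside their sequence. Each is the 250 bases before the RefSeq start on the gene's own strand, from GRCh38.p14. TGFB2 lies at chr1:218345086-218345335 on the plus strand, INHBA at chr7:41703091-41703340 on the minus strand, FSTL3 at chr19:676142-676391 on the plus strand and TGFBR3 at chr1:91886152-91886401 on the minus strand. The INHBA and TGFBR3 windows lie inside the genes as GENCODE draws them, since longer transcripts start upstream. Capitals mark matches on either strand to CAGAC, a core of SMAD boxes, to GGCGCC, a GC-rich SMAD element, or to TGANTCA, an AP-1 element.
TGFB2: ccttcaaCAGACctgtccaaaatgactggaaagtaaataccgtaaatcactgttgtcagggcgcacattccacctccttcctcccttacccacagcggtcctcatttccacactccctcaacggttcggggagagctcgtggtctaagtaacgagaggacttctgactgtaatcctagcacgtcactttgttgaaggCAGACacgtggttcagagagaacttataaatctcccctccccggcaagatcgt
INHBA: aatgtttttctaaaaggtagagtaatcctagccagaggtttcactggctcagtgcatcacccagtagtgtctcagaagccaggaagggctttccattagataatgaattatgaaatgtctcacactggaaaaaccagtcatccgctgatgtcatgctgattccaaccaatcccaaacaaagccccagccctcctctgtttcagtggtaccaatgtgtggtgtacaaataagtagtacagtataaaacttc
FSTL3: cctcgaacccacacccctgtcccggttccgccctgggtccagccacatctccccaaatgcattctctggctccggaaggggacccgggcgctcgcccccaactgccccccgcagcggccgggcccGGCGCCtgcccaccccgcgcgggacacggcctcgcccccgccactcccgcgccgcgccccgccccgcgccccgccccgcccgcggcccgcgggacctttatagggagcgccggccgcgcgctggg
TGFBR3: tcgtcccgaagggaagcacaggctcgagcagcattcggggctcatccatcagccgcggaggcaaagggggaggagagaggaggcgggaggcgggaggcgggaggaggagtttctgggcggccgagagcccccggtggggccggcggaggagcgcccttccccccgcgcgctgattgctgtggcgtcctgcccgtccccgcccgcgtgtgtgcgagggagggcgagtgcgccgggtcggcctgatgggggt

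The TGFB2 window held CAGAC at 2 places, the FSTL3 window held GGCGCC at 1 place, and the INHBA and TGFBR3 windows held none of the 3 motifs. Among all 35116 promoter windows of the same length in the RefSeq table, 38% held CAGAC, 16.4% held GGCGCC and 6.57% held TGANTCA. Windows were found for 34 of the 35 members tested, 61 in number since some genes have several starts, and 32.8%, 27.9% and 6.56% of them held these motifs. BMP4 had 3 windows and none is printed. A match describes the letters and not a binding site.

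A431 p53 KO cells had more RNA of several ligands and ligand-binding proteins than either control, while most receptors and SMADs did not pass the test. Against parental cells 8 members rose in p53 KO cells (TGFB2, LTBP4, INHBA, FSTL1, FSTL3, BMP1, BMP4 and TGFBI) and 3 fell (FST, TGFBR3 and SMAD3). Of all genes tested, 9.77% rose and 8.36% fell in that comparison. Against Ctrl cells 12 members rose (TGFB2, LTBP2, LTBP4, INHBA, FSTL1, FSTL3, BMP4, TGFBR1, BMPR1A, SMAD6, SMURF1 and TGFBI) and 4 fell (TGFBR3, SMAD3, ID1 and ID3), where 15% of all genes rose and 14.2% fell. Ctrl cells themselves differed from parental cells in 7 members: BMP1 and ID1 rose, and TGFB2, LTBP2, INHBA, FST and TGFBR1 fell, beside 10.6% and 9.69% of all genes. The comparisons share groups and are not independent of each other.

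A change of at least 2-fold was called for 3 members against parental cells (TGFB2, FSTL3 and TGFBR3) where 3.63% of all genes passed, for 5 against Ctrl cells (TGFB2, INHBA, FSTL3, BMP4 and TGFBR3) where 6.5% passed, and for 2 in Ctrl against parental cells (TGFB2 and INHBA) where 4.18% passed. In 11 members all 3 p53 KO libraries lay above all 6 control libraries, as they did for 11.9% of all genes. In 2 members, TGFBR3 and SMAD3, they lay below all 6, as for 10.1% of all genes. The median log2 fold change of the 35 members was 0.04 against parental and 0.16 against Ctrl, beside 0.01 for all genes in each, and −0.12 in Ctrl against parental beside 0.00. Without the first Ctrl library the calls were 12 higher and 4 lower against parental (17.2% and 16.3% of all genes), with BAMBI, BMPR1A, SMAD6 and SMURF1 added to the rises and BMPR2 to the falls. They were 13 higher and 4 lower against Ctrl (17.7% and 17.3%), with BMP1 added, and 2 higher and 7 lower in Ctrl against parental (10.4% and 10.3%), with FSTL3 and TGFBI added to the falls.

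**Figure D1:**
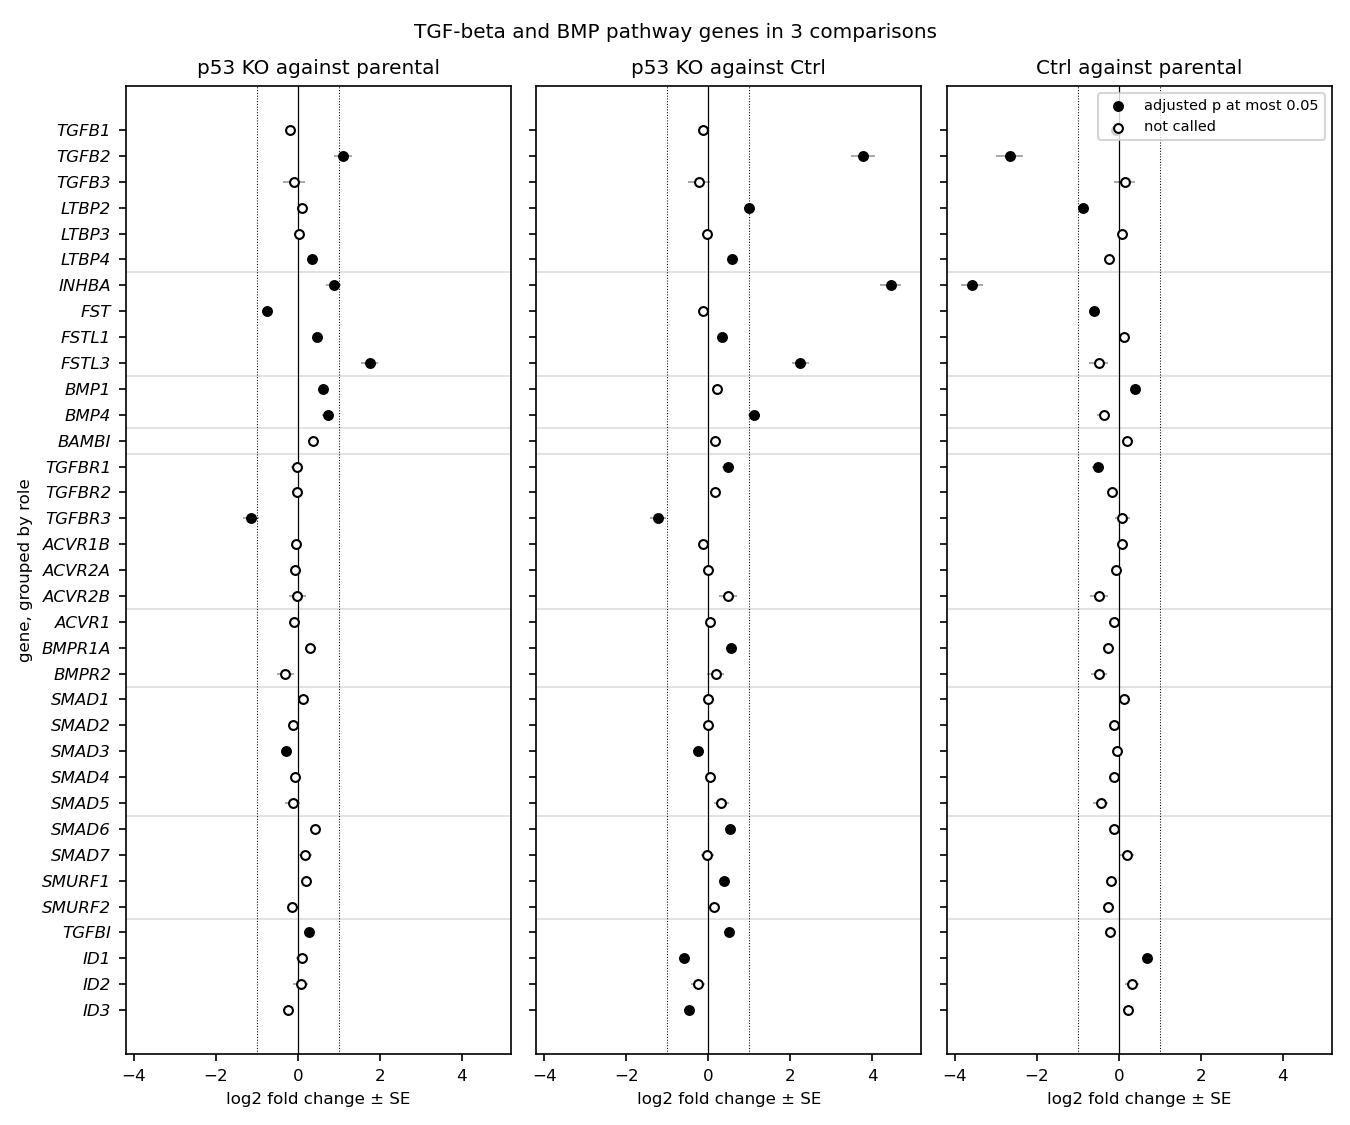
Log2 fold changes ± SE of the 35 members tested, grouped by role, in the 3 comparisons between groups. Filled points are called at an adjusted p of at most 0.05, dotted lines mark 2-fold, and TGFB2 and INHBA lie farthest from 0 against Ctrl, at 3.78 and 4.45.

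Among the TGF-beta ligands, TGFB2 changed and its relatives did not pass the test. TGFB2 (chr1:218345336-218444619, plus strand) had 75, 82 and 70 counts in parental libraries 1 to 3, 174, 197 and 135 in p53 KO and 2, 14 and 20 in Ctrl. In CPM that was 2.87, 3.15 and 3.23 in parental, 5.84, 7.49 and 6.70 in p53 KO and 0.102, 0.492 and 0.763 in Ctrl libraries. The 3 groups did not overlap, with p53 KO highest and Ctrl lowest. TGFB2 was 2.16-fold higher in p53 KO than in parental cells (log2 1.11 ± 0.22, adjusted p = 0.00496) and 13.7-fold higher than in Ctrl (log2 3.78 ± 0.30, adjusted p = 6.35e-06). In Ctrl against parental cells it fell by 2.67 ± 0.32 on the log2 scale (adjusted p = 0.000309). The first Ctrl library held 2 counts, and without it the difference between p53 KO and Ctrl was 3.41. Exons of TGFB2-AS1, on the opposite strand, overlap 701 bases of TGFB2 exons and had 0 to 7 counts, and TGFB2-OT1 lies within its exons with 0 counts. The strand setting of the counting was not given in the sources used here.

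TGFB1, the isoform most studied in tumours, had 81.8 to 112 CPM in all 9 libraries and overlapping groups. Its exons share 215 bases with HNRNPUL1 on the opposite strand, which had 12817 to 20772 counts a library, and the part of those reads in the TGFB1 count was not tested. The log2 fold changes of TGFB1 were −0.20 ± 0.11 against parental (adjusted p = 0.262) and −0.12 ± 0.11 against Ctrl (adjusted p = 0.469). TGFB3 had 25 to 52 counts in every library, with an adjusted p of at least 0.554 in each comparison. Per length of exon, TGFB1 was the most abundant TGF-beta RNA in each group: in p53 KO cells it had 26.9 ± 1.79 CPM per kb (SD, n = 3), TGFB2 1.10 ± 0.14 and TGFB3 0.294 ± 0.047. TGFB2 stood above TGFB3 in parental and p53 KO cells and below it in Ctrl cells (0.075 ± 0.055 against 0.343 ± 0.019 CPM per kb).

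Some of the latent TGF-beta binding proteins hold the inactive ligand in the extracellular matrix. LTBP4 had 36.2 to 39.6 CPM in parental, 31.5 to 32.6 in Ctrl and 44.5 to 53.6 in p53 KO libraries, 3 ranges that did not overlap. It rose by log2 0.34 ± 0.09 against parental (adjusted p = 0.0203) and 0.58 ± 0.09 against Ctrl (adjusted p = 0.00055). The rise against parental was lost when parental 1, parental 3 or p53 KO 3 was left out, with log2 values of 0.33, 0.32 and 0.25. Without Ctrl 1 the rise against parental was 0.34 ± 0.08 (edgeR adjusted p = 0.00363). LTBP2 lay at 11.6 to 15.2 CPM in parental, 13.9 to 15.5 in p53 KO and 6.68 to 8.08 in Ctrl libraries, so that the Ctrl libraries alone stood apart. It was higher in p53 KO than in Ctrl cells by log2 0.99 ± 0.12, just under 2-fold, and lower in Ctrl than in parental cells (−0.89 ± 0.12, adjusted p = 0.000627). LTBP3 ranged from 63.9 to 76.1 CPM with no call, and LTBP1 had at most 1 count in any library.

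**Figure D2:**
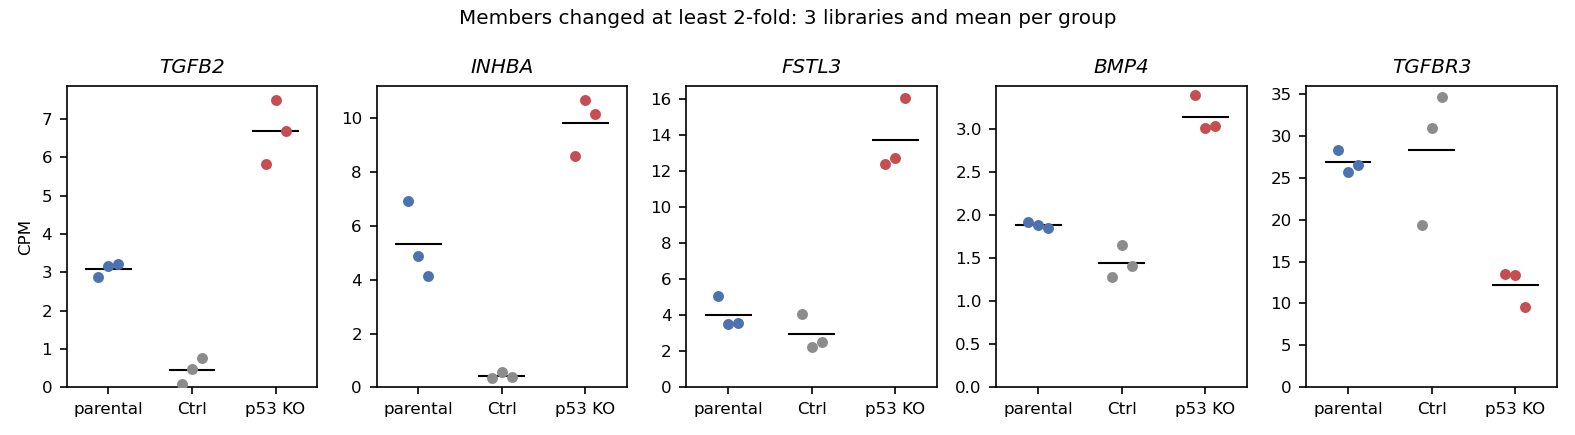
CPM of the 5 members called with at least a 2-fold change, with 1 point per library, a line at the mean of each group and axes starting at 0. TGFB2, INHBA, FSTL3 and BMP4 are highest in all 3 p53 KO libraries, TGFBR3 is lowest there, and TGFB2 and INHBA are near 0 in Ctrl.

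Activins are dimers of the chains encoded by INHBA and INHBB, and follistatins bind and neutralize them. INHBA (chr7:41667168-41705834, minus strand) had 181, 127 and 90 counts in parental, 256, 281 and 205 in p53 KO and 7, 16 and 10 in Ctrl libraries. The corresponding CPM were 6.92, 4.89 and 4.15 in parental, 8.59, 10.7 and 10.2 in p53 KO and 0.357, 0.562 and 0.381 in Ctrl. No group overlapped another, and the order was that of TGFB2. INHBA was 21.9-fold higher in p53 KO than in Ctrl cells (log2 4.45 ± 0.26, adjusted p = 8.4e-07) and 1.83-fold higher than in parental cells (log2 0.87 ± 0.18, adjusted p = 0.00567). Ctrl cells had less INHBA than parental cells by log2 −3.58 ± 0.27 (adjusted p = 1.48e-05). Its antisense neighbour INHBA-AS1 had 0 counts. INHBB had at most 5 counts in any library.

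FSTL3, a follistatin-like protein that binds activins, differed most among members between p53 KO and parental cells. FSTL3 (chr19:676392-683392, plus strand) had 132, 91 and 77 counts in parental, 370, 335 and 323 in p53 KO and 80, 64 and 66 in Ctrl libraries. In CPM these were 5.05, 3.50 and 3.55, then 12.4, 12.7 and 16.0, then 4.08, 2.25 and 2.52. All p53 KO libraries were above all controls, and the parental and Ctrl ranges overlapped. FSTL3 was 3.37-fold higher than in parental cells (log2 1.75 ± 0.20, adjusted p = 0.000244) and 4.75-fold higher than in Ctrl (log2 2.25 ± 0.21, adjusted p = 2.61e-05). Ctrl against parental gave −0.49 ± 0.24 (adjusted p = 0.151). Without the first Ctrl library that fall was called, at −0.77 ± 0.21 (edgeR adjusted p = 0.0166).

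FST, follistatin itself, went the other way. It had 13.0 to 16.0 CPM in parental libraries, 7.95 to 9.82 in p53 KO and 9.13 to 10.6 in Ctrl, so that parental libraries stood above the rest and p53 KO and Ctrl overlapped. FST fell against parental by 0.74 ± 0.12 on the log2 scale in p53 KO (adjusted p = 0.00141) and by 0.60 ± 0.12 in Ctrl (adjusted p = 0.00524), and p53 KO against Ctrl gave −0.14 ± 0.12 (adjusted p = 0.428). FSTL1, a secreted relative, had 21.8 to 22.7 CPM in p53 KO libraries and 15.3 to 18.3 in the 6 controls. It rose by log2 0.46 ± 0.08 against parental (adjusted p = 0.00219) and 0.34 ± 0.08 against Ctrl (adjusted p = 0.00713). Of 4 activin and follistatin genes tested, 3 rose and FST fell against parental cells, beside 9.77% and 8.36% of all genes. Against Ctrl 3 rose, beside 15% of all genes.

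BMP4, the one BMP ligand of the 3 listed that could be tested, was low in every library. BMP4 (chr14:53949736-53958761, minus strand) had 50, 49 and 40 counts in parental, 101, 79 and 61 in p53 KO and 25, 47 and 37 in Ctrl libraries. CPM were 1.91, 1.89 and 1.85 in parental, 3.39, 3.01 and 3.03 in p53 KO and 1.28, 1.65 and 1.41 in Ctrl. The p53 KO libraries lay above all controls and the Ctrl libraries below all parental ones. BMP4 was 1.67-fold higher than in parental (log2 0.74 ± 0.14, adjusted p = 0.00464) and 2.15-fold higher than in Ctrl cells (log2 1.11 ± 0.15, adjusted p = 0.000258), and Ctrl against parental was not called (−0.37 ± 0.16, adjusted p = 0.133). BMP2 had at most 3 counts and BMP7 at most 2.

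BMP1 is a metalloprotease that trims procollagens and the BMP antagonist chordin, and is not a BMP ligand. It had 35.5 to 38.0 CPM in parental, 47.0 to 52.5 in Ctrl and 55.7 to 59.0 in p53 KO libraries, 3 ranges without overlap. BMP1 rose in p53 KO cells by log2 0.61 ± 0.07 (adjusted p = 0.000337) and in Ctrl cells by 0.40 ± 0.08 (adjusted p = 0.00436) against parental. Between p53 KO and Ctrl the difference of 0.21 ± 0.07 missed the threshold (adjusted p = 0.0546). Without the first Ctrl library it was called, at 0.26 ± 0.07 (edgeR adjusted p = 0.00803). The antagonists NOG and GREM1 had no count in any library, which at 0 counts allows up to 3 counts per library. BAMBI, a decoy receptor without a kinase, had 4.97 to 7.74 CPM and no call with all libraries, at log2 0.38 ± 0.14 against parental (adjusted p = 0.082). Without the first Ctrl library this rise was called, at 0.38 ± 0.12 (edgeR adjusted p = 0.0205).

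Of the 6 TGF-beta and activin receptors tested, TGFBR3 fell in p53 KO cells against both controls and TGFBR1 was called where Ctrl cells were compared. TGFBR3 encodes betaglycan, a co-receptor that presents TGF-beta2 to the kinase receptors and binds inhibin. TGFBR3 (chr1:91680343-91906335, minus strand) had 739, 667 and 574 counts in parental, 403, 351 and 193 in p53 KO and 380, 879 and 909 in Ctrl libraries. In CPM these were 28.3, 25.7 and 26.5, then 13.5, 13.4 and 9.58, then 19.4, 30.9 and 34.7. All p53 KO libraries were below all controls, and the first Ctrl library was below the parental range while the others were above it. TGFBR3 was 2.19-fold lower than in parental (log2 −1.13 ± 0.20, adjusted p = 0.00241) and 2.33-fold lower than in Ctrl (log2 −1.22 ± 0.20, adjusted p = 0.000788). Without the first Ctrl library the latter was −1.42. Without p53 KO 3, its lowest p53 KO library, the fall against parental was −0.999, just short of 2-fold.

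TGFBR1, the type I kinase of TGF-beta, had 20.4 to 21.4 CPM in parental, 17.8 to 22.5 in p53 KO and 11.0 to 17.5 in Ctrl libraries. It was lower in Ctrl than in parental cells (−0.51 ± 0.15, adjusted p = 0.035) and higher in p53 KO than in Ctrl (0.48 ± 0.15, adjusted p = 0.031). Leaving out Ctrl 2, p53 KO 1 or parental 2 ended both calls, p53 KO 2 ended that against Ctrl, and parental 1 or 3 ended that of Ctrl against parental. The values then lay from 0.42 to 0.52 in p53 KO against Ctrl and from −0.55 to −0.50 in Ctrl against parental. Fits of only the 2 groups compared ended both calls at 0.48 and −0.52. Without Ctrl 1 both calls held at smaller sizes, 0.33 ± 0.10 and −0.35 ± 0.10. TGFBR2, the type II kinase, had 31.7 to 42.3 CPM and no call. The activin receptors ACVR1B, ACVR2A and ACVR2B had no call either, and ENG, the endothelial co-receptor endoglin, had at most 3 counts.

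Of the BMP receptors, BMPR1A, a type I kinase, had 53 to 62.8 CPM in p53 KO, 45.7 to 50.5 in parental and 31.0 to 44 in Ctrl libraries. It rose against Ctrl (log2 0.56 ± 0.13, adjusted p = 0.0067), and against parental it gave 0.30 ± 0.13 (adjusted p = 0.125). Without the first Ctrl library the rise against parental was called, at 0.31 ± 0.07 (edgeR adjusted p = 0.00465). ACVR1 and BMPR2 were not called, and BMPR1B had no count. BMPR2, the type II kinase, had 24.0 CPM in the first Ctrl library and 45.4 and 45.5 in the others, and its log2 difference between p53 KO and Ctrl was 0.18 ± 0.20 with that library and −0.06 ± 0.10 without it, called in neither. Against parental BMPR2 went from −0.30 ± 0.20 (adjusted p = 0.332) to a call at −0.30 ± 0.09 (adjusted p = 0.0183) without it.

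Of SMAD1, SMAD2, SMAD3, SMAD4 and SMAD5, the signal carriers from the receptors to the nucleus, SMAD3 was called. It had 153 to 162 CPM in parental, 134 to 162 in Ctrl and 125 to 129 in p53 KO libraries, which lay below all controls. SMAD3 fell by 0.29 ± 0.08 against parental (adjusted p = 0.0261) and by 0.25 ± 0.08 against Ctrl (adjusted p = 0.0361) on the log2 scale. Both calls depended on the libraries kept. That against parental was lost when any 1 parental or p53 KO library was left out (−0.32 to −0.27). That against Ctrl was lost when any 1 library other than Ctrl 1 was left out (−0.26 to −0.21). It was also lost with only the 2 groups compared (−0.25) or with no filter beyond 1 count (−0.24). Without Ctrl 1 both calls held by edgeR with a lower adjusted p. SMAD3 was then −0.29 ± 0.05 against parental (adjusted p = 0.000707) and −0.33 ± 0.06 against Ctrl (adjusted p = 0.0005). SMAD4 had 28.6 to 33.3 CPM in all 9 libraries, and its log2 differences were within 0.12 of 0. SMAD5 had 33.8 CPM in the first Ctrl library and 54.8 to 70.9 in the rest.

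SMAD6 and SMAD7 are inhibitory SMADs induced by the pathway itself, and SMURF1 and SMURF2 are ubiquitin ligases that remove receptors and SMADs. SMAD6, the inhibitor of BMP signals, had 7.11 to 8.98 CPM in p53 KO and 4.95 to 6.66 in the 6 control libraries. It rose against Ctrl (log2 0.53 ± 0.13, adjusted p = 0.012), a call lost without p53 KO 2 at 0.43, and against parental it fell just short (0.42 ± 0.13, adjusted p = 0.0504). Without the first Ctrl library the rise against parental was called, at 0.42 ± 0.13 (edgeR adjusted p = 0.0197). SMURF1 had 85.3 to 93.1 CPM in p53 KO and 62.0 to 83.8 in control libraries, and rose against Ctrl by log2 0.39 ± 0.09 (adjusted p = 0.00558). Against parental SMURF1 gave 0.20 ± 0.09 (adjusted p = 0.146), called without the first Ctrl library at 0.20 ± 0.07 (edgeR adjusted p = 0.0353). Its exons share 735 bases with TRRAP on the opposite strand, whose own log2 difference between p53 KO and Ctrl was 0.38 ± 0.16 (adjusted p = 0.106). The part of TRRAP reads in the SMURF1 count was not tested. SMAD7 had 69 to 128 counts per library and SMURF2 36.3 to 49.1 CPM, and neither was called.

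**Figure D3:**
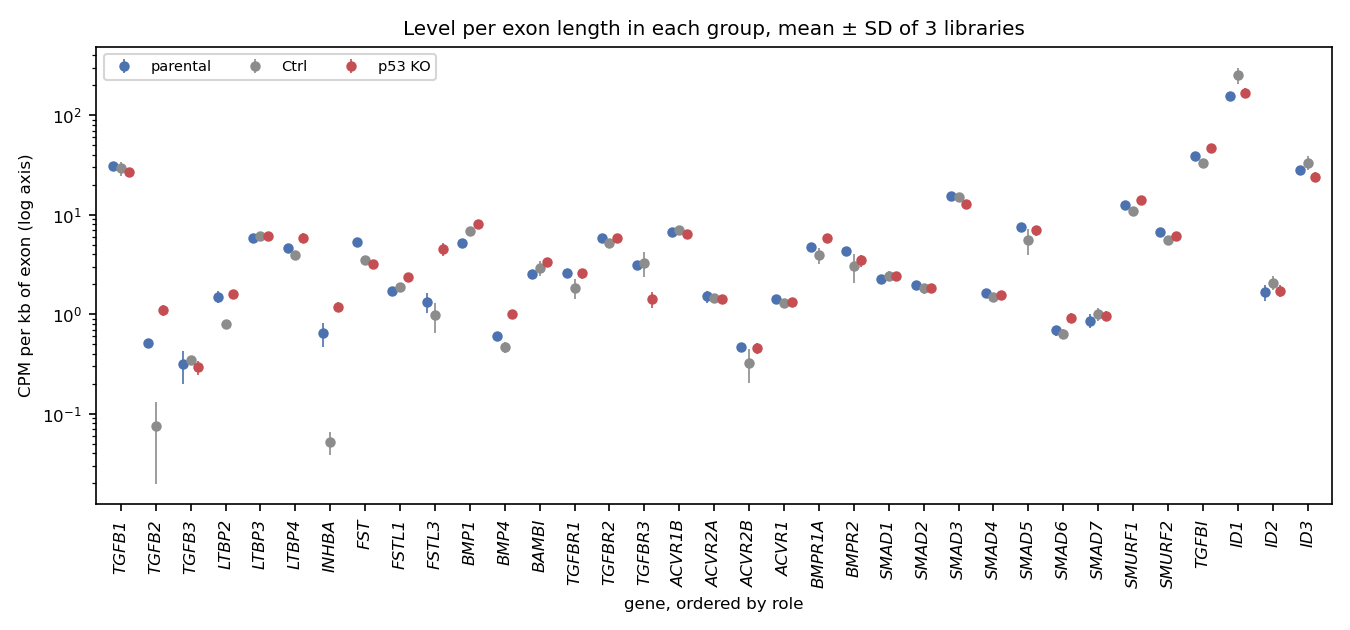
Mean CPM per kb of exon ± SD of 3 libraries for each of the 35 members tested, on a log axis, by group. ID1, TGFBI, TGFB1 and ID3 are the most abundant in each group, and TGFB2 and INHBA span the widest range between groups.

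Per kb of exon, ID1 was the most abundant member, at 158 ± 11.8 CPM per kb in parental cells, 254 ± 47.3 in Ctrl cells and 169 ± 18.2 in p53 KO cells (SD, n = 3). TGFBI had 38.8 ± 1.37, 33.2 ± 3.06 and 47.2 ± 1.66 in the same groups. In Ctrl cells ID3, at 33.6 ± 5.32, lay within the spread of TGFBI. TGFB1, SMURF1 and SMAD3 lay between 10.9 and 30.8 CPM per kb in the 3 groups. Exon length here is the union of all exons annotated in GENCODE, so genes with many isoforms such as SMAD2 are understated. Reads were counted on another annotation, so the lengths may include exons that were not counted.

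Of the 4 targets, TGFBI, a matrix protein induced by TGF-beta, rose in p53 KO cells and none of the BMP-responsive ID genes did. TGFBI had 288 to 309 CPM in parental, 230 to 274 in Ctrl and 351 to 376 in p53 KO libraries, without overlap. It rose by log2 0.28 ± 0.08 against parental (adjusted p = 0.0261) and 0.51 ± 0.08 against Ctrl (adjusted p = 0.000537). The call against parental was lost when any 1 parental or p53 KO library was left out (0.26 to 0.31). Without Ctrl 1 that rise was 0.28 ± 0.06 (edgeR adjusted p = 0.00279). In Ctrl against parental TGFBI gave −0.22 ± 0.08 (adjusted p = 0.0600), called without Ctrl 1 at −0.28 ± 0.07 (edgeR adjusted p = 0.0119). ID1, ID2 and ID3 encode inhibitors of bHLH factors. ID1 had 178 to 204 CPM in parental, 186 to 230 in p53 KO and 247 to 359 in Ctrl libraries, so the Ctrl libraries were highest and the others overlapped. It rose in Ctrl against parental (log2 0.68 ± 0.13, adjusted p = 0.0051), was lower in p53 KO than in Ctrl (−0.58 ± 0.13, adjusted p = 0.00618), and gave 0.10 ± 0.13 against parental (adjusted p = 0.648). ID3 fell against Ctrl (−0.47 ± 0.12, adjusted p = 0.0147), a call lost at −0.42 without p53 KO 1 or 2. ID2 had 65 to 147 counts and no call.

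Beyond the members, 111 other pathway genes were listed and 63 of them tested. Against parental cells 11 rose and 9 fell, against Ctrl cells 15 rose and 11 fell, and in Ctrl against parental cells 6 rose and 18 fell. The shares of all genes that rose and fell were 9.77% and 8.36%, 15% and 14.2%, and 10.6% and 9.69% in these comparisons. Without the first Ctrl library the number called against parental went from 20 to 38, while the shares of all genes went to 17.2% and 16.3%. Of 18 TGF-beta targets tested in this list, 4 rose and 4 fell in p53 KO against parental, and 5 rose and 4 fell against Ctrl. Of 8 BMP targets, 2 rose and 1 fell against parental, and 2 rose and 2 fell against Ctrl.

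PMEPA1, a membrane protein that sequesters receptor SMADs, had 16.9 to 20.9 CPM in parental, 20.7 to 23.7 in p53 KO and 4.60 to 6.21 in Ctrl libraries. Ctrl libraries were lowest, and p53 KO and parental overlapped. PMEPA1 was lower in Ctrl than in parental cells (−1.82 ± 0.13, adjusted p = 1.01e-05) and higher in p53 KO than in Ctrl (2.09 ± 0.13, adjusted p = 1.25e-06), with 0.27 ± 0.12 against parental (adjusted p = 0.133). SKIL, a SMAD co-repressor, was not called with all 9 libraries, at −0.41 ± 0.20 in p53 KO (adjusted p = 0.186) and −0.54 ± 0.20 in Ctrl (adjusted p = 0.0764) against parental. Without the first Ctrl library both were called lower, at −0.40 ± 0.08 (adjusted p = 0.00115) and −0.29 ± 0.09 (adjusted p = 0.027). CTGF had 1 count in all libraries together, SMAD9 had none and ID4 had 2 to 9.

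**Figure D4:**
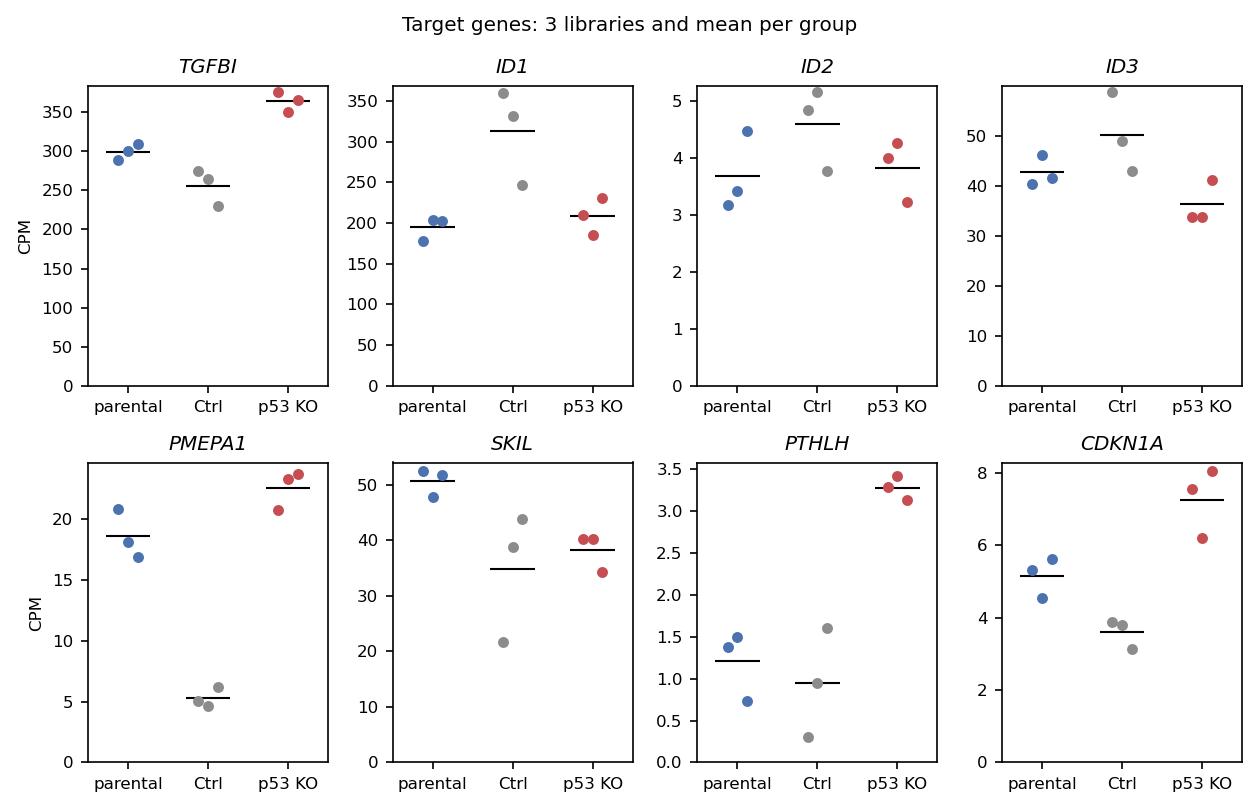
CPM of TGFBI, ID1, ID2, ID3, PMEPA1, SKIL, PTHLH and CDKN1A by library, with 1 point per library, a line at the group mean and axes starting at 0. TGFBI, PTHLH and CDKN1A are highest in all 3 p53 KO libraries, ID1 is highest in all 3 Ctrl libraries and PMEPA1 is lowest there.

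Among the remaining listed genes, the largest changes that were called one way against each control were 6 rises and 2 falls. RGMA, a BMP co-receptor, had 22 to 35 counts in p53 KO and 1 to 10 in control libraries (log2 2.52 ± 0.46 against parental). Without its p53 KO libraries RGMA would not have passed the count filter. Its call is therefore not independent of the filter, and its fold change rests on control values near the floor. ACVR1C, a type I receptor for activin and nodal, had 2.48 to 3.59 CPM in p53 KO, 1.49 to 1.77 in parental and 0.204 to 0.632 in Ctrl libraries, the order of TGFB2 and INHBA. THBS1, thrombospondin-1, which can activate latent TGF-beta, had 657 to 857 CPM in p53 KO, 465 to 611 in parental and 135 to 225 in Ctrl libraries. These groups did not overlap in ACVR1C or THBS1. PTHLH, which encodes parathyroid hormone-related protein, rose by log2 1.42 ± 0.34 against parental and 1.72 ± 0.35 against Ctrl, HEY1, a transcriptional repressor, by 0.87 ± 0.17 and 1.19 ± 0.17, and CDKN1A, which encodes the cell cycle inhibitor p21, by 0.49 ± 0.14 and 1.01 ± 0.14. NEO1, the neogenin receptor for RGM proteins, fell by 0.89 ± 0.10 against parental and by 0.86 ± 0.10 against Ctrl. GATA2, a transcription factor, fell by 0.49 ± 0.08 and by 1.19 ± 0.08.

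The difference of the first Ctrl library from its group varied with exon length, with exceptions. Its log2 CPM less the mean of the other Ctrl libraries was −1.93 for TGFB2, −1.01 for ACVR2B, −0.92 for BMPR2, −0.80 for SMAD5 and −0.75 for TGFBR3, and 0.76 for FSTL3, 0.40 for BAMBI and 0.37 for TGFB1. TGFB2, the member that moved most, has 6050 bases of exon, and the longer LTBP3, SMAD4 and SMAD2 (11521, 19606 and 36426 bases) moved by 0.15, −0.07 and −0.30. These lengths are not from the annotation used for counting and may include exons that were not counted. Over the 35 members the Spearman correlation of this difference with exon length was −0.56, a description over genes of 1 library. Over all genes the median deviation of the first Ctrl library was 0.25 in the shortest of 5 equal classes by exon length and −0.26 in the longest. The library p53 KO 3 had a smaller trend of the same direction within its group, at 0.14 and −0.13. With the trend with exon length removed from every library, 10 members rose and 4 fell in p53 KO against parental (11.1% and 9.54% of all genes), 13 rose and 4 fell against Ctrl (16.6% and 16.3%), and 2 rose and 5 fell in Ctrl against parental (12% and 11.1%). BMPR1A, SMAD6 and ID3 were added against parental and ACVR2B against Ctrl.

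**Figure D5:**
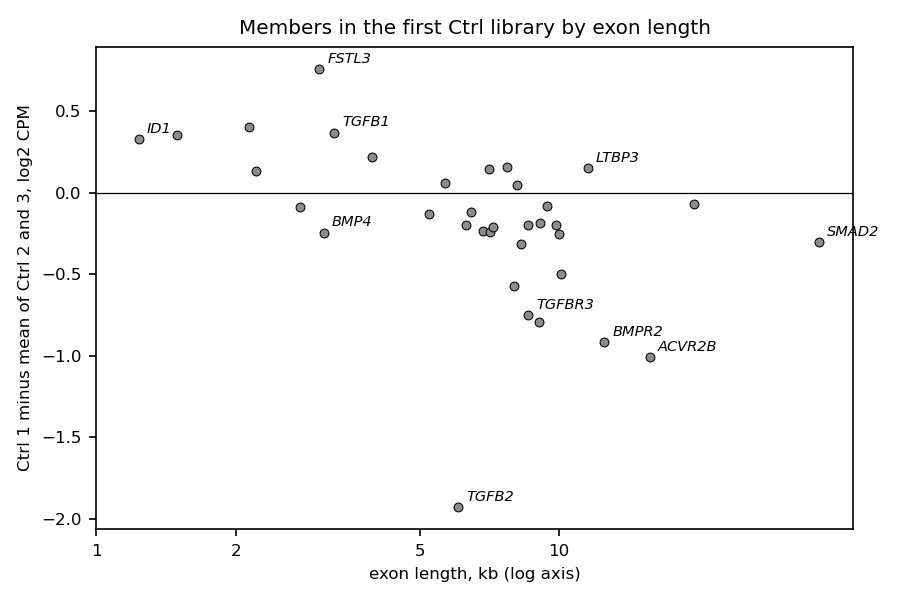
Log2 CPM of the first Ctrl library less the mean of the other Ctrl libraries for the 35 members tested, against exon length in kb on a log axis. ID1 and FSTL3, both short, lie above 0, TGFB2 lies lowest at −1.93, and the longest member, SMAD2, lies at −0.30.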

How the data were processed

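Poly(A) libraries were prepared with a strand-specific kit. Per the study's methods and the labels, the authors checked reads with FastQC, aligned them in paired-end mode to GRCh38 with STAR 2.5.1b, counted them per gene with featureCounts on an Ensembl annotation, and deposited raw counts without normalization. The strand setting was not given in the sources used here. Symbols were read from the gene names of the table.

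Counts of 9 libraries, 3 per group by their titles, were analysed in R 4.3.3. Genes with low counts were filtered by group (filterByExpr, minimum count 10), libraries scaled by TMM, and 1 mean per group fitted with edgeR 4.0.16 (quasi-likelihood F test, Benjamini-Hochberg over all genes tested). The standard error follows from the F statistic. DESeq2 1.42.0, other filters, the replicate number as a block, fits of only the 2 groups compared and leaving out each library were alternatives. Removing each library's trend with exon length, leaving out Ctrl 1 and p53 KO 3 together, and counting the other pathway genes without Ctrl 1 were chosen after seeing the data. The fit was tried on simulated data with no trend with exon length and no library that stands apart, so that trial cannot speak to these features. Positions and exon lengths come from GENCODE release 44, promoters from RefSeq, and figures were drawn with matplotlib 3.10.9.

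The members and lists were chosen with earlier results of these data known. By rule, counts per library are given for members called with at least 2-fold change, and of other pathway genes CTGF, PMEPA1, SKIL, ID4 and SMAD9 are named, with at most 8 others of largest mean change among genes called one way against each control. Some genes that the rule names are not reported here.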

Additional observations from a re-analysis of the deposited data

Results flagged for a closer look

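TGFB2 and INHBA were called in opposite directions against parental cells in the 2 derived lines. TGFB2 was 1.11 on the log2 scale in p53 KO and −2.67 in Ctrl cells, and the difference between these effects, 3.78, was tested by edgeR as p53 KO against Ctrl (adjusted p = 6.35e-06, higher in 3 of 3 p53 KO libraries). INHBA was 0.87 in p53 KO and −3.58 in Ctrl cells, a difference of 4.45 (adjusted p = 8.4e-07, higher in 3 of 3 p53 KO libraries).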

How the results depend on the processing

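Of 105 member differences, 34 were called, and none of these changed direction under the 17 alternatives. Of the 71 not called, 26 had the other sign under at least 1 alternative, each at a size of at most 0.15 and an adjusted p of at least 0.308 by edgeR or DESeq2. Members called in p53 KO against parental numbered 11, and 17 with only the 2 groups compared. They also numbered 17 with Ctrl 1 and p53 KO 3 both left out, a fit in which 15.7% of all genes rose and 15.1% fell. Members called in Ctrl against parental numbered 7, then 11 with no filter beyond 1 count and 15 with both libraries left out (14.2% and 14.3% of all genes). At least 10 counts in every library, which removes TGFB2 and INHBA, left 3 members with at least 2-fold change in p53 KO against Ctrl and 0 in Ctrl against parental by edgeR, where no remaining member reached 2-fold. Leaving out 1 library gave 8 to 16 calls for p53 KO against parental (16 without Ctrl 1). It gave 12 to 17 for p53 KO against Ctrl and 6 to 11 for Ctrl against parental (11 without Ctrl 3). Where no share of all genes stands beside a count in this section, none is given here. Such counts cannot tell a shift of the members from a shift of all genes. Other pathway genes called in p53 KO against parental numbered 20, and 38 without Ctrl 1 (17.2% and 16.3% of all genes) or 33 without both libraries. Nothing in the labels pairs the libraries by number, and deviations of same-numbered libraries correlated at −0.35 to 0.04. With the number as a replicate block 8, 14 and 6 members were called in the 3 comparisons, and the calls of LTBP4, SMAD3 and TGFBI against parental, of SMAD3 and TGFBR1 against Ctrl, and of TGFBR1 in Ctrl against parental were lost. The causes were not tested. Depth limits LTBP1, INHBB, BMP2, BMP7, ENG, NOG, GREM1 and BMPR1B, with at most 5 counts a library.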
